A study of Mus musculus with 7 samples.

Results

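The 9 genes described here encode NF-kappa B transcription factors and proteins that restrain or redirect them: Nfkb1, Nfkb2, Rel and Relb among the factors, and Nfkbia, Nfkbid, Nfkbiz, Bcl3 and Tnfaip3 among the inhibitors. They were chosen by name from the 27998 genes of the count tables, and all 9 were found and passed the filter on low counts in every comparison. NF-kappa B factors act as pairs of Rel family proteins that bind kappa B sites in DNA. In a resting T cell the pairs are held in the cytoplasm by inhibitors of the I-kappa-B family, and signals from the antigen receptor, CD28 or TNF receptors lead to the breakdown of these inhibitors, so that the pairs enter the nucleus. Several of the induced genes encode the pathway's own inhibitors, which makes their transcripts a common readout of recent signalling in T cells.

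Droplet 3' single-cell RNA sequencing was done on spleen T cells of C57BL/6 mice infected with lymphocytic choriomeningitis virus, Armstrong strain, and gave 7 libraries, each labelled as 1 sample. Of these, 2 held total CD44high T cells of wild type mice at day 7 (total replicates 1 and 2), in which sorted CD4+ and CD8+ cells had been mixed in equal parts. A further 5 held GP66:I-Ab+ cells, which bind a class II tetramer with a viral glycoprotein peptide and were sorted as CD44high: 1 library from wild type mice at day 7 with a CD4+ gate, and 1 library each of Ox40-Cre+ Thpokwt/wt RosaYFP+ (Thpok-sufficient) and Ox40-Cre+ Thpokfl/fl RosaYFP+ (Thpok-deleted) cells at day 7 and at day 30. The last 4 libraries carried Ox40-Cre and the reporter in both genotypes and were sorted as YFP+, so Thpok, the CD4 lineage factor encoded by Zbtb7b, was removed only in cells that had switched on Ox40 (an activation-induced receptor). The sources used here give neither age nor the number of animals per library.

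Cells kept numbered 725 to 6845 per library, with a median of 2017 to 5900 UMIs (unique molecules counted) per cell. The 2 libraries of day 30 were the shallowest, at medians of 2017 and 2440 UMIs. Zbtb7b was counted at 388 UMIs in the wild type and 391 in the Thpok-sufficient library of day 7 and at 32 in the Thpok-sufficient library of day 30, and at 1 UMI in each Thpok-deleted library. The 4 T cell markers found in the files (Cd3e, Cd3d, Cd3g and Cd2) were present in every library, with a summed level of 1900 to 3344 CPM (UMIs of a gene per 1000000 UMIs of the same cells). B cell markers summed to 13.3 to 53.7 and myeloid markers to 191 to 301 CPM. Haemoglobin genes of red cells summed to 6223 CPM in the Thpok-deleted library of day 30 against 0.210 to 270 elsewhere, and their part in the results was not tested. In the total libraries, cells that had a UMI of Cd4 but none of Cd8a and Cd8b1 are called CD4-like (1450 and 553 cells), and the converse CD8-like (3568 and 1076 cells). Each comparison used UMI counts summed per library and class, and p values measure no spread beyond that among those libraries, part of which may be technical. A p value does not rest on that gene's own values alone, because the spread was estimated jointly over the genes tested. No GP66+ group had a replicate library. In fits over GP66+ libraries the spread is therefore between unlike groups, namely wild type and Thpok-sufficient cells of day 7. In the fit of genotype and day it also holds any difference of the genotype effect between days.

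Among the factors, Nfkb1 (p105, cut to the p50 subunit) was counted at 84.7 and 77.6 CPM in the CD4-like cells of total replicates 1 and 2 and at 52.0 and 50.2 in their CD8-like cells. In the GP66+ libraries its day 7 levels were 142 (wild type), 107 (Thpok-sufficient) and 75.8 (Thpok-deleted), and its day 30 levels 137 (Thpok-sufficient) and 122 (Thpok-deleted). The lowest levels were therefore those of CD8-like cells, and the Thpok-deleted cells of day 7 lay within the counting error of total CD4-like cells. Relb, the factor of the non-canonical branch, was counted at 32.3, 32.1, 16.9, 19.2, 56.3, 43.1, 27.7, 69.0 and 58.4 CPM in the same 9 groups of cells. It too was lowest in CD8-like cells, but its highest level was in the Thpok-sufficient cells of day 30, where that of Nfkb1 was in the wild type cells of day 7. Nfkb2 (p100, cut to the p52 subunit) was counted at 15.5 in CD8-like cells of replicate 2 and was lower still in those of replicate 1. It was highest at 51.1 in the wild type GP66+ cells. For Nfkb1, Relb and Nfkb2 alike, the counting interval of the highest level overlapped that of the next, so their top groups are not told apart.

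Rel, which encodes c-Rel, the factor most tied to lymphocyte activation, had the widest range of the 4 factors. It was counted at 27.9 and 43.9 CPM in total CD4-like and at 20.8 and 20.3 in total CD8-like cells. Its levels were 337, 187 and 76.7 in the wild type, Thpok-sufficient and Thpok-deleted GP66+ cells of day 7, and 196 and 236 in the Thpok-sufficient and Thpok-deleted cells of day 30. The Thpok-deleted cells of day 7 were the lowest GP66+ group, and those of day 30 the second highest.

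Nfkbia encodes I-kappa-B alpha, the classical cytoplasmic inhibitor. Its levels in the same order were 257 and 315 CPM in CD4-like, 133 and 125 in CD8-like, 1797, 1513 and 615 in GP66+ cells of day 7, and 838 and 869 in those of day 30. Nfkbiz, which encodes the nuclear protein I-kappa-B zeta, had a like pattern, with 33.3 and 69.5 in CD4-like, 15.8 and 21.6 in CD8-like, 396, 379 and 108 at day 7, and 244 and 166 at day 30. Over the 9 groups of cells the log2 levels of these 2 inhibitors had a Pearson r of 0.99, the highest of the 36 pairs of members (a description, since groups share libraries and depth).

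Nfkbid, which encodes the nuclear inhibitor I-kappa-B NS, was highest at day 30 instead. It was counted at 23.6 and 20.6 CPM in CD4-like and 16.7 and 9.43 in CD8-like cells, at 67.8, 87.3 and 26.0 in GP66+ cells of day 7 and at 345 and 215 in those of day 30. Tnfaip3, which encodes the ubiquitin-editing enzyme A20, was nearly flat within each kind of library, with 8.21 and 13.4 in CD4-like and 9.02 and 9.59 in CD8-like cells, 166, 184 and 179 in GP66+ cells of day 7, and 645 and 577 in those of day 30. Bcl3, which encodes a nuclear partner of p50 and p52, had no such order: 14.7 and 38.7 in CD4-like, 9.41 and 22.1 in CD8-like, 18.1, 23.3 and 13.5 at day 7, and 11.0 and 19.6 at day 30. Total replicate 2 exceeded replicate 1 for Bcl3 in both classes, and Bcl3 correlated with each of the other members at r from -0.18 to 0.15.

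**Figure D1:**
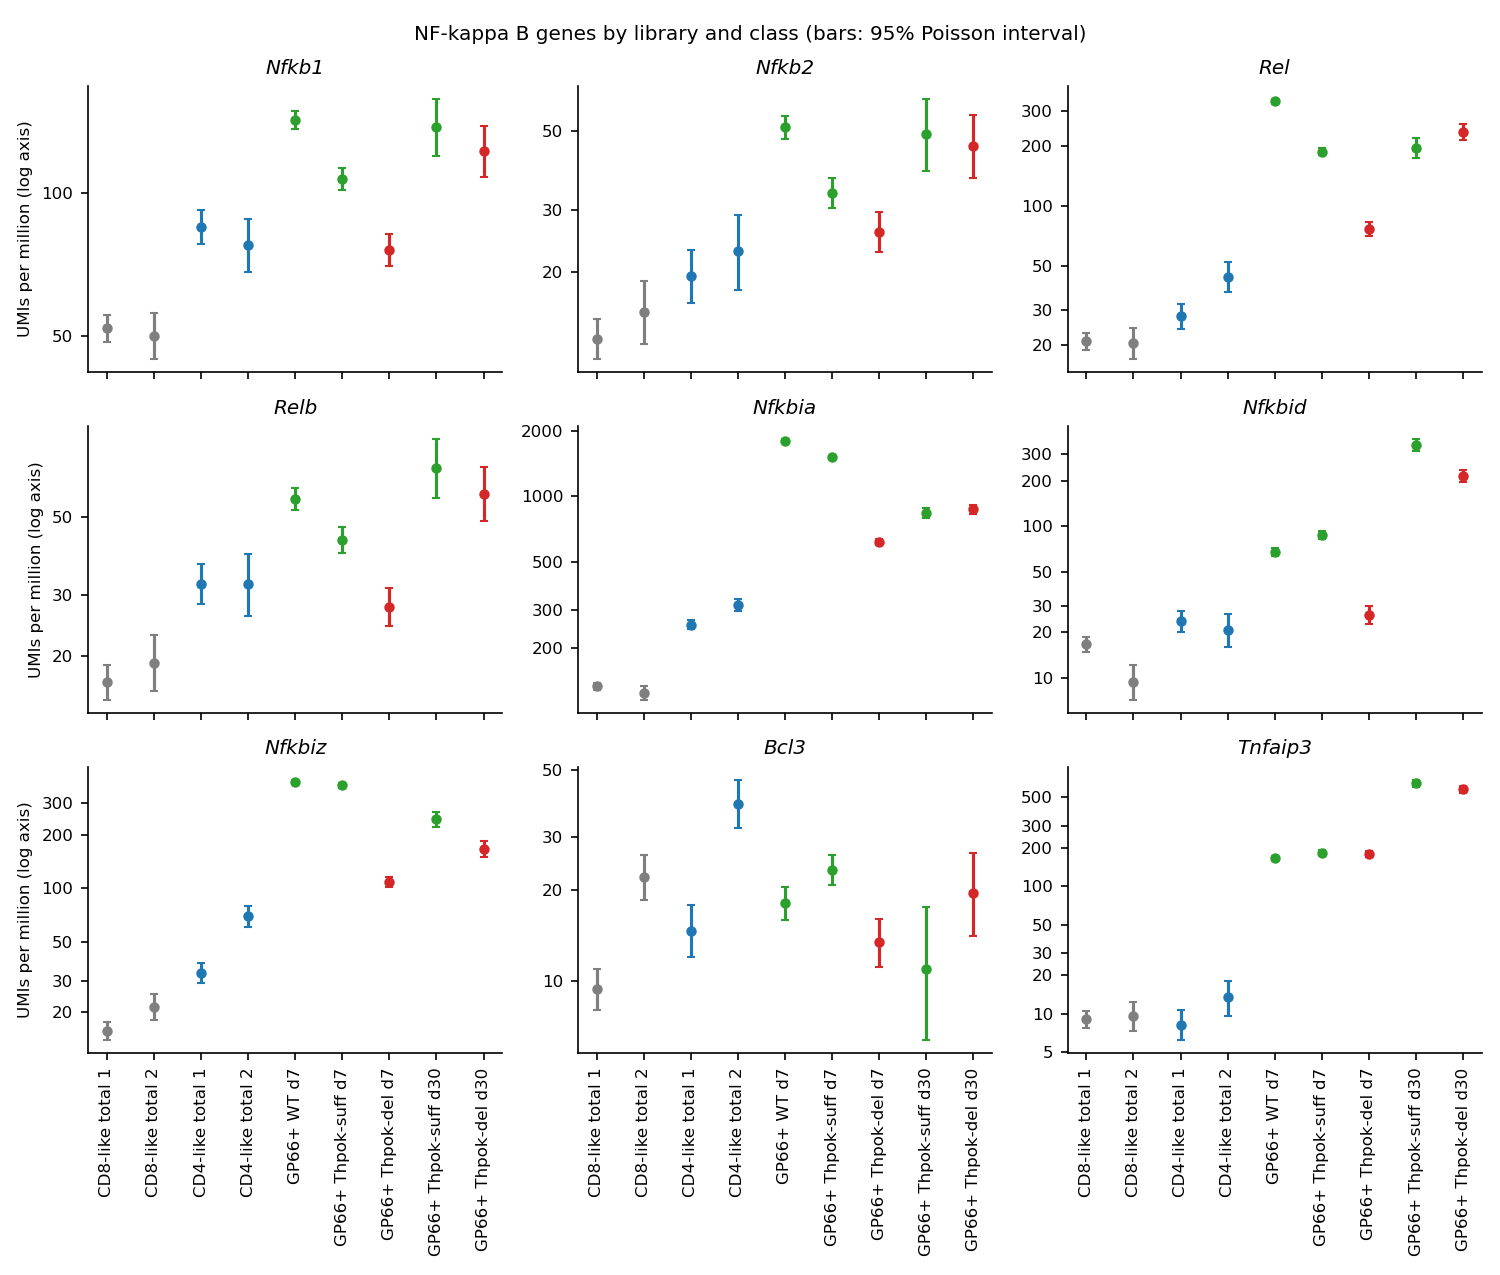
CPM of each member (log axis) in CD8-like (grey) and CD4-like (blue) cells of the 2 total libraries and in the GP66+ libraries, Thpok-intact in green and Thpok-deleted in red. Bars are 95% Poisson intervals, which cover counting error only. Tnfaip3 forms 3 steps (8.21 to 13.4, 166 to 184 and 577 to 645), and Nfkbia and Nfkbiz are lower in the Thpok-deleted cells of day 7 (615 and 108) than in the other GP66+ cells of that day.

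Free RNA was read from barcodes with at most 50 UMIs, whose mean was 2.18 to 6.09 UMIs per library. Its member levels followed those of the cells of the same library, with Tnfaip3 at 13.5 and 17.6 CPM in the total libraries and at 138 to 848 in the GP66+ libraries. In the Thpok-sufficient and Thpok-deleted libraries of day 30 it exceeded the cells for Tnfaip3 (848 and 763 against 645 and 577). The same held there for Nfkbid (579 and 385 against 345 and 215). A droplet with 50 such UMIs would hold a Tnfaip3 UMI in 0.0677% and 0.0878% of cases in the total libraries, where 3.66% and 6.33% of CD4-like cells had one. At day 30 these values were 4.24% and 3.81%, where 66.8% and 71.7% of T cells had one. The smallest such ratio over all members and libraries was 10.8, for Nfkbia in the wild type GP66+ cells. The amount of free RNA in droplets with a cell was not measured, and its part in the results was not tested.

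In total CD44high cells, 8 of the 9 members were lower in CD8-like than in CD4-like cells of the same library, all but Tnfaip3 (edgeR quasi-likelihood test with the library as block, Benjamini-Hochberg adjustment over 10209 genes at 0.05). Of all genes, 17.6% were called lower and 34.5% in either direction. The largest differences were those of Nfkbiz, at a log2 fold change of -1.26 ± 0.14 (SE, adjusted p = 3.4e-06), and Nfkbia, at -1.04 ± 0.09 (adjusted p = 1.07e-07). Relb (-0.78), Bcl3 (-0.64), Rel (-0.62), Nfkbid (-0.60), Nfkb1 (-0.59) and Nfkb2 (-0.50) followed, each lower in 2 of 2 libraries. Tnfaip3 differed by -0.02 ± 0.20 (adjusted p = 0.959). The fit had 1 residual degree of freedom. The number of members called lower was 4 with DESeq2, 5 in cells thinned to 1500 UMIs and 3 without the library as block. Of all genes, 614 of 10209, 856 of 8446 and 593 of 10209 were called lower in these settings. Nfkb1, Relb and Nfkbia were called lower in each of them.

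At 1500 UMIs per cell, 28.8% and 33.5% of CD4-like but 16.9% and 15.3% of CD8-like cells held an Nfkbia UMI (without thinning, 54.3% and 66.5% against 37.2% and 37.2%). For Nfkbiz the thinned shares were 4.71% and 8.51% against 2.50% and 2.80%. In summed counts, fewer cells with a transcript and fewer transcripts per cell cannot be told apart, and a share at 1 depth narrows this only in part. Genes of the immediate-early response to receptor signals summed to 368 and 400 CPM in CD4-like and 287 and 337 in CD8-like cells, with 0 of 10 tested called higher and 4 lower. A list of dissociation-stress genes summed to 825 and 1506 against 703 and 1144, with 0 of 10 called higher and 6 lower. Their part in the difference was not tested.

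Of the pathway's kinases and adaptors, 3 of 18 were lower in CD8-like cells (Traf1 -0.74, Map3k14 -0.67 and Birc3 -0.57) and 1 was higher (Ripk1 0.52). Over all genes, 17.6% were called lower and 16.9% higher, so these counts lie near or below those shares. Traf1 is an adaptor of TNF receptors and Map3k14 (NIK) the kinase that starts the non-canonical branch. Of 13 genes for RelA and further negative regulators, 3 were higher, including N4bp1 (0.997) and Otulin (0.59), and 2 lower, including Tnip2 (-0.81). Of 16 target genes tested, 7 were lower, led by Cd83 (-2.72), Tnf (-2.56) and the chemokine gene Cxcl10 (-1.90), and 3 were higher. The median log2 fold change was -0.60 over the 4 factors and -0.64 over the 5 inhibitors, beside -0.02 over all genes.

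Tetramer-binding helper cells were set beside total CD4-like cells of day 7, both from mice with intact Thpok. Of the 9 members, 4 were higher in GP66+ cells (edgeR, adjusted over 10273 genes), where 0.448% of all genes were called higher and 0 lower (697 and 631 at an unadjusted p under 0.05; 131 and 51 with DESeq2). Tnfaip3 rose from 8.21 and 13.4 CPM in total CD4-like to 159 (wild type) and 180 (Thpok-sufficient) in CD4-like cells of GP66+ libraries, a log2 fold change of 4.09 ± 0.25 (adjusted p = 0.00973). Nfkbia rose from 257 and 315 to 1770 and 1458, by 2.56 ± 0.15 (adjusted p = 0.00973). For these 2 genes the arms lay far apart, with no overlap. Nfkbiz rose from 33.3 and 69.5 to 397 and 369 (3.00 ± 0.32, adjusted p = 0.0347), and Rel from 27.9 and 43.9 to 336 and 184 (2.93 ± 0.31, adjusted p = 0.0347), again with no overlap between arms.

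The other 5 members did not pass. Nfkbid had a difference of 1.87 ± 0.25 (adjusted p = 0.0567), Nfkb2 1.11 (adjusted p = 0.148), Relb 0.67 (0.211) and Nfkb1 0.66 (0.227), each with higher values in both GP66+ libraries, and Bcl3 -0.25 ± 0.46 (0.847) with overlapping arms. With 2 libraries per arm the calls rested on few samples. Most or all of them were lost when a total replicate was left out, as were those over all genes. Leaving out a library leaves an arm without a replicate, so effect sizes alone are given for it. The log2 fold changes of the 4 called members lay between 2.49 and 4.25 without the wild type or the Thpok-sufficient library. That of Nfkbiz was 3.54 without total replicate 2.

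The share of CD4-like cells with a Tnfaip3 UMI at 1500 UMIs was 1.25% and 1.63% in the total and 21.7% and 22.3% in the GP66+ libraries (unthinned, 3.66% and 6.33% against 56.8% and 55.3%). For Nfkbia it went from 28.8% and 33.5% to 81.0% and 74.1%. Within Cxcr5+ Cxcr6- cells alone, a gate for follicular helper-like cells, the 4 called members had log2 fold changes of 3.91 (Tnfaip3), 2.55 (Nfkbia), 3.16 (Nfkbiz) and 3.21 (Rel), all past the threshold. Within Cxcr6+ Cxcr5- cells alone, a gate for Th1-like cells, they were 4.12, 2.95, 3.09 and 2.94, of which Rel did not pass (adjusted p = 0.0635). Nr4a1 is a gene induced at once by antigen receptor signals. Among cells with no Nr4a1 UMI after thinning to 1500 UMIs, the changes were 4.14, 2.40, 3.06 and 2.75. All were past the threshold together with Nfkbid (1.84). Thinning hid Nr4a1 in many cells, so this group also holds cells with Nr4a1 transcripts. Thinned, 548 wild type and 585 Thpok-sufficient GP66+ cells had an Nr4a1 UMI, against 1253 and 1185 unthinned.

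Early-response genes summed to 1058 and 1371 CPM in the GP66+ libraries of this comparison against 368 and 400 in total CD4-like cells (all T cells taken in the GP66+ libraries), with 3 of 10 called higher. Dissociation-stress genes summed to 2669 and 3398 against 825 and 1506, with 3 of 11 called higher. Egr3 and Atf3, a member of each list, were at 0 in both total CD4-like sums. Their part in the rise was not tested. Among other genes of the pathway, Traf1 (1.49, 1 of 18 kinases and adaptors), Zc3h12a (2.44, 1 of 13), and the targets Cxcl10 (3.06) and Mir155hg (2.98; 2 of 16) were called higher. Zc3h12a encodes an RNase that limits inflammatory transcripts, and Mir155hg is the host gene of miR-155.

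**Figure D2:**
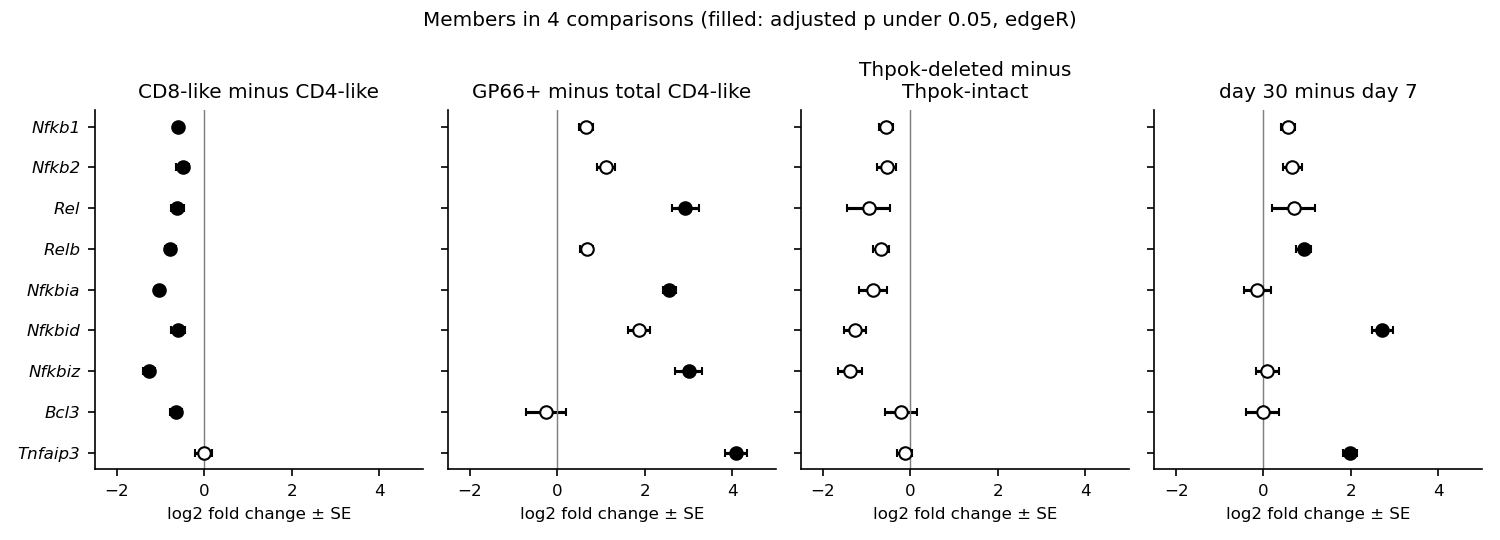
Log2 fold change ± SE of the 9 members in 4 comparisons of summed counts, filled where the adjusted p of edgeR is under 0.05. CD8-like cells are lower for all but Tnfaip3 (-0.02), GP66+ cells are higher most of all for Tnfaip3 (4.09), no member is filled for Thpok deletion, and day 30 is higher for Nfkbid (2.72), Tnfaip3 (1.98) and Relb (0.92).

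The stretch before a transcription start is shown for 4 members that had among the largest differences in GP66+ cells or at day 30 (Nfkbiz, at 3.00 in GP66+ cells, had no window in the RefSeq table), since kappa B sites let the factors act on genes of their own pathway. RefSeq promoter windows (GRCm38.p6, 250 bases before to 50 after a start) existed for 6 members, and each of the 6 held a match to the kappa B consensus on either strand in at least 1 window. Of all 27025 genes with windows, 5.14% did. A looser pattern on either strand (3 G, any 5 bases, 2 C), which overlaps the consensus, was in 6 of 6 and in 53.5% of all genes, the AP-1 pattern TGANTCA in 2 of 6 (8.97% of all) and the cyclic AMP response element TGACGTCA in 1 of 6 (2.03%). Bases outside annotated exons are printed 5′ to 3′ on the gene's strand, with consensus matches in capitals. The stretches are chr12:55492648-55492897 on the minus strand for Nfkbia, chr10:19015411-19015547 on the minus strand for Tnfaip3, chr11:23770971-23771219 on the minus strand for Rel, and chr7:30422156-30422405 on the plus strand for Nfkbid.
Nfkbia: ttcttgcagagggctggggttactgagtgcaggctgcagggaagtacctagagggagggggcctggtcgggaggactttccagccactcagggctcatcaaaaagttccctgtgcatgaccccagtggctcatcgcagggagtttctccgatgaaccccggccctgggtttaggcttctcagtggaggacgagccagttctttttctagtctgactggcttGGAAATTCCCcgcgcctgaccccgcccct
Tnfaip3: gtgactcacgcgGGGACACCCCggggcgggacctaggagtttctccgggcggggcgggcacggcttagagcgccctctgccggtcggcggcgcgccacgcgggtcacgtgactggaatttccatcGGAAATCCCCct
Rel: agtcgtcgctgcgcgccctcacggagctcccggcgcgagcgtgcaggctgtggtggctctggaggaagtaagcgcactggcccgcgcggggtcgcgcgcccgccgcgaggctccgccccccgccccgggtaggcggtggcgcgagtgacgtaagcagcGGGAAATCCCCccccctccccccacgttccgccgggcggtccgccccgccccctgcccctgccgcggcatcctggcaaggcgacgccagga
Nfkbid: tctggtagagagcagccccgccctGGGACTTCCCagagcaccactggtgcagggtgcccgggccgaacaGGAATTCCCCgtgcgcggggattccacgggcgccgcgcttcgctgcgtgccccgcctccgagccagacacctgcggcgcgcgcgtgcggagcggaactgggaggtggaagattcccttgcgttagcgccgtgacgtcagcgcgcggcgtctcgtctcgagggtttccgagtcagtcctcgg
The match begins 29 bases before the start in Nfkbia. In Rel 2 overlapping matches begin 92 and 91 bases before the start. Nfkbid has 3 start windows and Tnfaip3 has 2 in the RefSeq table, and the window shown was chosen because it was the only one of that gene with a match. In that window the matches begin 125 and 12 bases before the start for Tnfaip3 and 226 and 181 for Nfkbid. A match is a run of letters, and no binding was measured here.

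For Thpok deletion, 0 of 9 members passed the test in either direction in a fit of genotype and day over the 5 GP66+ libraries, in which the wild type library counted as Thpok-intact. Of 10812 genes, 0.731% were called higher and 0.379% lower. At an unadjusted p under 0.05, 945 of all genes were higher and 967 lower. All 9 members had a negative log2 fold change, 5 of them at an unadjusted p under 0.05. DESeq2 called 2 members lower (Nfkbid -1.25 and Nfkbiz -1.35), and 255 higher and 218 lower of all genes. Nfkbiz had the largest difference, at -1.38 ± 0.28 (adjusted p = 0.0945), with Thpok-intact libraries at 396, 379 and 244 CPM and Thpok-deleted ones at 108 and 166. It was the only member whose 2 arms did not overlap. Nfkbid differed by -1.27 ± 0.25 (adjusted p = 0.0922), Rel by -0.95 ± 0.49 (0.395), Nfkbia by -0.86 ± 0.32 (0.256), Relb by -0.67, Nfkb1 by -0.56, Nfkb2 by -0.54, Bcl3 by -0.22 and Tnfaip3 by -0.13 ± 0.17 (0.742).

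The pooled fit joined different values at the 2 days. At day 7 the Thpok-sufficient library exceeded the Thpok-deleted one 3.51-fold for Nfkbiz (95% counting interval 3.27 to 3.77) and 3.36-fold for Nfkbid (2.91 to 3.89). The excess was 2.46-fold for Nfkbia (2.39 to 2.54) and 2.45-fold for Rel (2.24 to 2.67). The wild type library exceeded the Thpok-deleted one 3.68-, 2.61-, 2.92- and 4.39-fold for these genes in the same order. At day 30 the deleted over sufficient ratio was 0.681 for Nfkbiz and 0.624 for Nfkbid, but 1.04 for Nfkbia (0.966 to 1.11) and 1.21 for Rel (1.04 to 1.40). Nfkbiz and Nfkbid were thus lower in the deleted library at both days, whereas the ratios of Rel and Nfkbia were below 1 at day 7 and above 1 at day 30. The ratio for Tnfaip3 was near 1 throughout, at 0.974 (0.913 to 1.04) at day 7 and 0.895 (0.822 to 0.973) at day 30. These intervals cover counting error between 2 libraries and not the spread between animals.

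**Figure D3:**
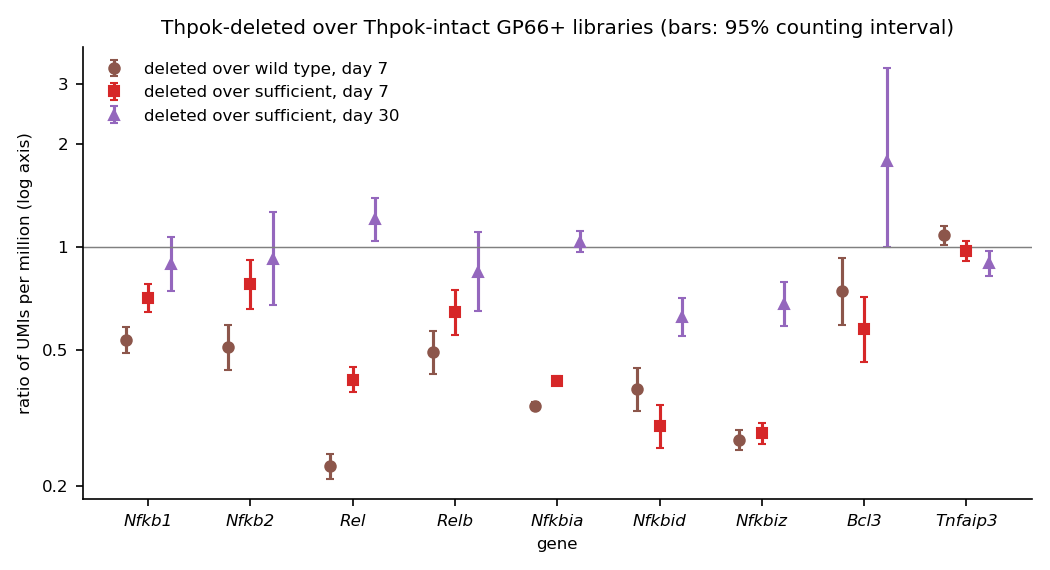
Ratio of CPM in Thpok-deleted over Thpok-intact GP66+ libraries (log axis), for the wild type and the Thpok-sufficient library of day 7 and the Thpok-sufficient library of day 30, with 95% counting intervals. Rel, Nfkbia, Nfkbid and Nfkbiz lie between 0.228 and 0.409 at day 7, and Rel (1.21) and Nfkbia (1.04) do not at day 30.

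A test of the difference itself, an interaction of genotype and day with 1 residual degree of freedom, called 0 members and 0 of 11338 genes (555 higher and 204 lower at an unadjusted p under 0.05, and 6 higher with DESeq2), a percentage of 0. The interaction was 1.76 ± 0.55 for Rel, 1.22 ± 0.24 for Nfkbia and 1.03 ± 0.20 for Nfkbiz on the log2 scale, all with an adjusted p of 0.696, so a different effect at the 2 days was not shown. Tnfaip3 had -0.45 ± 0.29. Of 17 target genes, 17 had a positive interaction and 0 passed, with a median of 1.65 beside 0.02 over all genes.

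The state of the cells differed along with genotype. In the Thpok-deleted library of day 7, 33 cells were Cxcr5+ Cxcr6- and 686 Cxcr6+ Cxcr5-, against 521 and 313 in the Thpok-sufficient library. Within Cxcr6+ Cxcr5- cells of day 7, Nfkbia stood at 571 CPM (Thpok-deleted), 1731 (Thpok-sufficient) and 1850 (wild type). Nfkbiz stood at 101, 388 and 388, Rel at 76.9, 173 and 257, and Tnfaip3 at 166, 218 and 168 in the same order. The Thpok-deleted cells were thus the lowest for all 4 genes within this gate, by little for Tnfaip3. The fit of genotype and day on this gate alone gave -1.55 for Nfkbiz (adjusted p = 0.0682), -0.95 for Nfkbia (0.634) and -0.92 for Rel (0.632).

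Early-response genes summed to 853 CPM in Thpok-deleted cells of day 7 against 1058 and 1371 in Thpok-intact ones, and to 3056 against 3076 at day 30, with 0 of 10 called. Dissociation-stress genes summed to 1858 against 2669 and 3398 at day 7 and to 7699 against 8327 at day 30, with 0 of 12 called. Their part in the members' values was not tested. Of the other pathway genes, Traf1 was called lower (-1.37 ± 0.15, adjusted p = 0.0388), with Thpok-intact libraries at 367, 270 and 381 and Thpok-deleted ones at 117 and 179 CPM. It was the only one of 18 kinases and adaptors, and 0 of 13 further regulators and 0 of 17 targets were called. No gene was called without the Thpok-deleted library of day 7, or without either library of day 30.

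From day 7 to day 30, 3 of 9 members were called higher in GP66+ cells and 0 lower, where 9.97% of 10812 genes were called higher, 11.9% lower and 21.8% in either direction. Nfkbid rose from 67.8, 87.3 and 26.0 CPM in the wild type, Thpok-sufficient and Thpok-deleted cells of day 7 to 345 and 215 in the Thpok-sufficient and Thpok-deleted cells of day 30, by 2.72 ± 0.24 on the log2 scale (adjusted p = 0.00903). Tnfaip3 rose from 166, 184 and 179 to 645 and 577 (1.98 ± 0.17, adjusted p = 0.00884), and Relb from 56.3, 43.1 and 27.7 to 69.0 and 58.4 (0.92 ± 0.17, adjusted p = 0.0247). The 2 libraries of day 30 were above all 3 of day 7 for each of these genes, by the least for Relb. Within Thpok-sufficient cells the ratio of day 30 over day 7 was 3.95 for Nfkbid and 3.51 for Tnfaip3, and within Thpok-deleted cells 8.28 and 3.22.

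Nfkb1 (0.57 ± 0.16, adjusted p = 0.0582), Nfkb2 (0.66, 0.0834) and Rel (0.69, 0.341) did not pass, and Nfkbia (-0.14), Nfkbiz (0.08) and Bcl3 (-0.02) had values near 0. For Nfkbia this average covered a lower value in Thpok-sufficient cells, at a ratio of 0.554 (0.523 to 0.586), and a higher value in Thpok-deleted cells, at 1.41 (1.34 to 1.49). Rel had ratios of 1.05 and 3.08 in the same cells. The 3 calls were lost without the Thpok-deleted library of day 7 or without either library of day 30, where no gene of the whole table was called. They were 2 without the Thpok-sufficient library of day 7, when Relb was lost, and 6 without the wild type library.

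Depth fell with day, and its part in the change was not tested. The share of cells with a UMI at 1500 UMIs, which leaves out the shallowest cells, was also higher at day 30 for Nfkbid and Tnfaip3. It was 10.7%, 11.9% and 3.94% for Nfkbid at day 7 and 33.6% and 25.2% at day 30, and 22.4%, 22.7% and 25.3% against 58.2% and 54.9% for Tnfaip3 (unthinned, 56.4%, 55.1% and 60.5% against 66.8% and 71.7%). Within Cxcr6+ Cxcr5- cells the changes were 3.00 for Nfkbid, 1.84 for Tnfaip3 and 1.36 for Relb, all past the threshold. Early-response genes summed to 853 to 1371 CPM at day 7 and to 3056 and 3076 at day 30, with 7 of 10 called higher. Dissociation-stress genes summed to 1858 to 3398 and to 7699 and 8327, with 7 of 12 called higher, and their part was not tested.

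Further pathway genes were called in both directions between days, where 9.97% of all genes were called higher and 11.9% lower. Of 18 kinases and adaptors, 4 were called higher, led by Map3k14 (2.10) and Malt1 (1.18), a protease that carries antigen receptor signals to NF-kappa B, and Tradd (-1.19) was lower. Of 13 other regulators, 2 were higher (Zc3h12a 1.35 and Rela 0.87, the gene of the p65 subunit) and 2 lower, Nkiras2 (-1.55) and Commd1 (-1.31), both known as restraints on NF-kappa B. Of 17 targets, 0 were called (the median was 0.20).

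Cxcr6+ Cxcr5- cells were compared with Cxcr5+ Cxcr6- cells of the same library in 6 libraries, since the Thpok-deleted library of day 30 had 13 cells in the second gate. Of 9 members, 3 were called lower in Cxcr6+ cells, where 12.5% of 9261 genes were called lower, 13.8% higher and 26.3% in either direction. Rel was counted at 15.01 and 43.5 CPM in Cxcr6+ cells of total replicates 1 and 2. Its day 7 levels in this gate were 257 (wild type), 173 (Thpok-sufficient) and 76.9 (Thpok-deleted), and the Thpok-sufficient library of day 30 had 214. Its levels in Cxcr5+ cells were 34.1, 36.4, 393, 238, 95.8 and 217 in that order. Rel was lower in Cxcr6+ cells of 5 of 6 libraries (-0.52 ± 0.11, adjusted p = 0.00143), with total replicate 2 the exception. The Thpok-sufficient library of day 30 had 32 Rel UMIs in each gate. The Thpok-deleted library of day 7 had 21 Rel UMIs in 33 Cxcr5+ cells. Nfkbid was lower in 4 of 6 (-0.58 ± 0.14, adjusted p = 0.00396), with values of 38.1 against 79.7 in the wild type and 67.3 against 99.8 in the Thpok-sufficient cells of day 7. Relb was lower in 5 of 6 (-0.37 ± 0.13, adjusted p = 0.0436), and Nfkbia (-0.20), Nfkbiz (-0.22) and Tnfaip3 (-0.04) did not pass. For Relb the wild type values lay close, at 53.5 against 55.1 CPM, and the Cxcr5+ cells of the Thpok-deleted library held 7 UMIs.

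The number called lower in this gate was 1 with DESeq2 (Rel), 1 without the Thpok-sufficient library of day 7 (Rel), and 0 without the library as block. Of all genes, 799 of 9261, 723 of 8407 and 235 of 8043 were called lower in these settings. Early-response genes were called lower in 4 of 10 and dissociation-stress genes in 5 of 12 cases (and higher in 1), and their part was not tested. Of the targets, 8 of 17 were called higher in Cxcr6+ cells, led by Ccl4 (5.60), Il2ra (4.41) and Ccl3 (4.20), and 3 lower. The shares over all genes were 13.8% higher and 12.5% lower. Of 18 kinases and adaptors, 4 were lower, led by Malt1 (-0.61), Traf1 (-0.44) and Bcl10 (-0.39), which partners Malt1, and 1 was higher. Of 13 other regulators, 3 were higher and 2 lower, led by Tnip2 (-1.02), N4bp1 (0.92) and the deubiquitinase gene Cyld (-0.35).

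Cells with and without an Nr4a1 UMI were compared within 6 libraries after each cell was thinned to 1500 UMIs, total replicate 2 having too few such cells. Of 9 members, 3 inhibitors were called higher in Nr4a1+ cells, where 0.748% of 7087 genes were called higher and 0.0988% lower, and each was higher in 6 of 6 libraries. Nfkbid rose by 0.74 ± 0.11 (adjusted p = 1.06e-09), Nfkbiz by 0.44 ± 0.09 (adjusted p = 0.000114) and Nfkbia by 0.40 ± 0.07 (adjusted p = 3.19e-06). In the wild type, Thpok-sufficient and Thpok-deleted cells of day 7 and the Thpok-sufficient and Thpok-deleted cells of day 30, Nfkbid stood at 72.1, 76.9, 23.3, 249 and 209 CPM without and at 122, 137, 48.9, 417 and 284 with an Nr4a1 UMI. Nfkbia stood at 1742, 1401, 570, 751 and 791 without and at 2235, 1708, 943, 910 and 1116 with one. The CD4-like cells of total replicate 1 had 21 cells with an Nr4a1 UMI, and the 3 members remained called without that library and without each other library in turn.

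Tnfaip3 had a smaller difference in this gate, 0.21 ± 0.08 (adjusted p = 0.380), and was higher in 5 of 6 libraries. Its levels were 168, 168, 201, 638 and 606 CPM without and 212, 229, 213, 720 and 632 with an Nr4a1 UMI in the same 5 GP66+ groups, so that the step between days was far wider than the step between gates. Nfkb1 (0.21, higher in 6 of 6), Rel (0.17) and the other factors did not pass. Of 15 targets tested, 6 were higher and 0 lower, led by Ccl4 (1.17), Ccl3 (1.04) and Tnf (0.98). Of 17 kinases and adaptors and 12 other regulators, 0 were called. Early-response genes were called higher in 7 of 10 cases, Nr4a1 itself included, which is fixed by the gate, and dissociation-stress genes in 4 of 12. The part of either list was not tested. DESeq2 called 2 members (Nfkbia and Nfkbiz), where it called 10 of 7087 genes higher and 0 lower. All UMIs of a cell gave 5 members, where 357 of 10574 genes were called higher and 146 lower. The fit without the library as block gave 0 members, where 1 of 5724 genes was called higher and 0 lower.

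**Figure D4:**
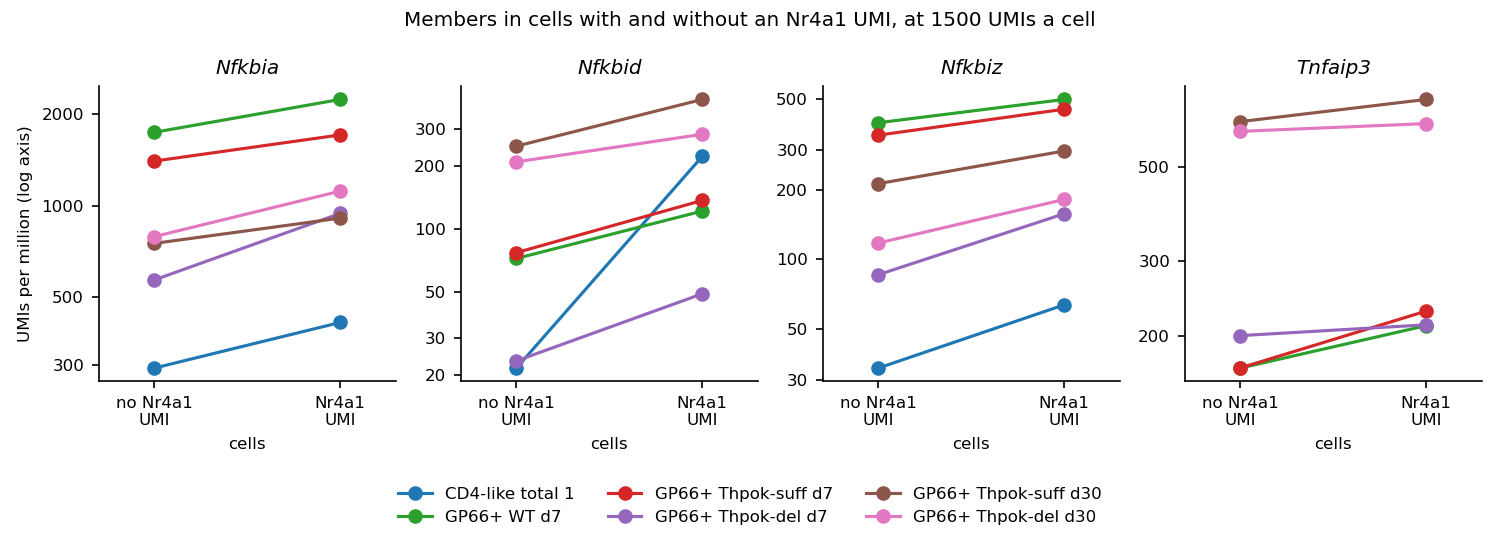
CPM (log axis) of 4 inhibitors in cells without and with an Nr4a1 UMI, each cell thinned to 1500 UMIs, with 1 line per library. Every line rises for Nfkbia, Nfkbid and Nfkbiz, and the line of the 21 Nr4a1+ cells of total replicate 1 is left out for Tnfaip3, which had 0 UMIs there.

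Single cells held several members at once in GP66+ libraries. Cells with fewer than 1500 UMIs were left out here, most often at day 30. At 1500 UMIs per cell, CD4-like cells of total replicates 1 and 2 held a UMI of 0.652 and 0.764 of the 9 members on average, and cells of the GP66+ libraries of 2.29 (wild type), 1.97 (Thpok-sufficient) and 1.18 (Thpok-deleted) at day 7 and of 2.31 and 2.14 at day 30. The share of cells with 3 or more members was 2.98% and 3.62% in the total libraries, 39.9%, 31.1% and 11.0% at day 7 and 42.8% and 34.1% at day 30. The Thpok-deleted cells of day 7 lay between total CD4-like and the other GP66+ cells, with no member in 29.9% of cells against 5.47% and 10.4% in the Thpok-intact libraries of that day.

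**Figure D5:**
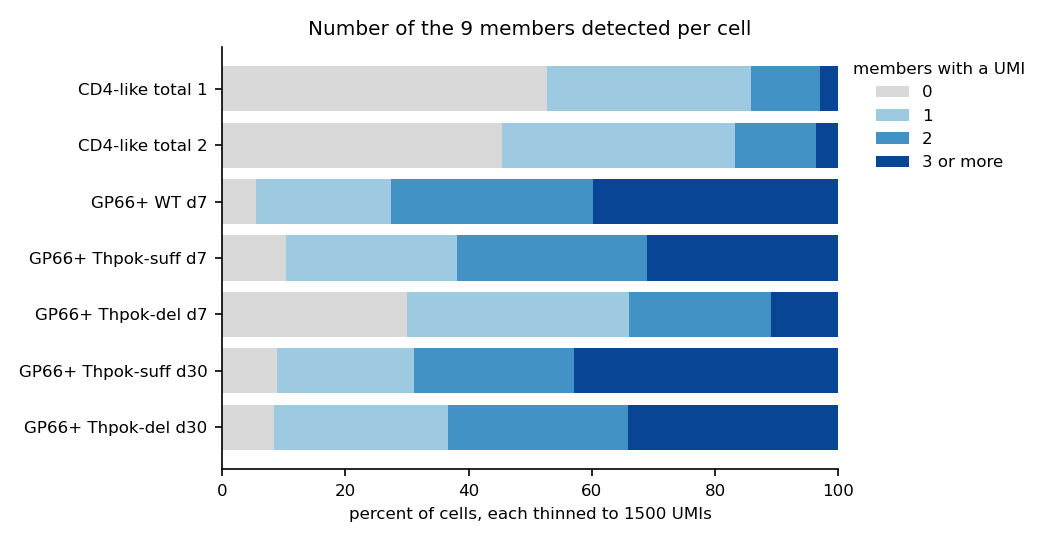
Percent of cells with a UMI of 0, 1, 2, or 3 or more of the 9 members, each cell thinned to 1500 UMIs, for CD4-like cells of the total and all T cells of the GP66+ libraries. The share with 3 or more is 2.98% and 3.62% in the total libraries and 11.0% to 42.8% in the GP66+ libraries.

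Within libraries, cells with an Nfkbia UMI more often held an Nfkbiz UMI than cells without one, in 7 of 7 libraries at this depth. The day 7 shares were 46.2% against 35.2% (wild type), 42.8% against 26.6% (Thpok-sufficient) and 19.8% against 6.17% (Thpok-deleted). The same direction held in 7 of 7 libraries for Rel, Nfkb1, Nfkb2 and Bcl3, in 6 for Nfkbid and Tnfaip3 and in 5 for Relb. These are descriptions over cells of single libraries, in which cells are not replicates.

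The genes whose log2 levels over the 9 groups of cells were most like those of 4 members were found among genes with a mean of at least 20 CPM. For Tnfaip3 they were Nr4a2 (r = 0.996), Nr4a1 (0.992) and Slc3a2 (0.990), and for Nfkbia they were Nfkbiz (0.986), Cxcl10 (0.977) and Slc4a7 (0.972). For Nfkb1 they were Relb (0.982), Top1 (0.976) and Bcl2a1d (0.974). Bcl3 had weaker likenesses, to Gimap8 (0.892), Ssbp3 (0.849) and Tnfrsf9 (0.838). The 9 groups share 7 libraries and their depth, so each r is a description.

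In GENCODE vM21 on GRCm38 the members lie at chr3:135584655-135691547 (Nfkb1, minus strand), chr19:46304320-46312385 (Nfkb2, plus), chr11:23736847-23770970 (Rel, minus), chr7:19606217-19629438 (Relb, minus), chr12:55489410-55492647 (Nfkbia, minus), chr7:30421732-30428746 (Nfkbid, plus), chr16:55811375-55838899 (Nfkbiz, minus), chr7:19808462-19822770 (Bcl3, minus) and chr10:19000910-19015657 (Tnfaip3, minus). Relb, Bcl3 and Nfkbid share chromosome 7. Nfkb2 overlaps Psd and Bcl3 overlaps Gm16175 and Gm16174, each on the opposite strand, and the sources used here do not say how strand was used in counting.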

How the data were processed

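The authors deposited raw UMI counts for each gene in each barcode, from 10x 3' version 2 libraries per the labels' protocols. The submitters' processing notes name bcl2fastq 2.17, Cell Ranger (without a version) and mm10. A barcode counted as a cell if its UMI total was at least 10% of a reference total, the 99th percentile among its well's 3000 largest barcodes, if it held 500 or more genes and if no more than 10% of its UMIs were mitochondrial. Scrublet called 72 of 16114 cells doublets (0.447%), too few to be trusted, so doublets were kept. Clustering (scanpy 1.11.5) set aside 76 cells of the total libraries in a cluster led by B cell and myeloid genes. Pairs of libraries shared 1 to 25 cell barcodes, at most 1.13% of the smaller library.

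Sums of counts by library and class were compared in edgeR 4.0.16 (quasi-likelihood, TMM, filterByExpr, R 4.3.3), with Benjamini-Hochberg adjustment over all genes tested at 0.05. Simulated counts that took their spread from these fits were tested afterwards, and the outcome is not given here. DESeq2 1.42.0 was an alternative. Classes from the same library were compared with the library as block, since they came from the same wells. Total replicate 1 held barcodes of 3 wells, whose counts were summed, and each other library those of 1 well. A standard error is the size of the log2 fold change divided by the square root of F. Intervals are exact (Poisson for levels, binomial for ratios) at 95% and cover counting error only. Likeness used log2 of CPM plus 5. Genes named are the 9 members, up to 3 called genes with the largest change per pathway list and comparison, and 3 genes most like each of 4 members. Rela, the comparison within gates for single libraries and further genes named beside these were chosen after their values were seen. The members and lists were chosen with earlier results of these data known. Fits within the Cxcr5 and Cxcr6 gates, in cells without Nr4a1 and in day 7 libraries alone were added after seeing the data. Barcodes with no cell served as the measure of free RNA because no class known to lack these genes was present.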

Additional observations from a re-analysis of the deposited data

How the results depend on the processing

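Over the members' 638 values under alternative settings, 539 were unchanged, 46 lost the call, 25 gained it, 25 changed sign and 3 moved with no test to hold them. Where a test existed, unchanged means the same direction and side of the threshold. Values with no residual degree of freedom had no test. They counted as unchanged if they lay within the SD of the values with a library left out. That SD came from the same values that were judged, so for them unchanged is a weak statement. Without the filter on low counts, 8 members were called higher in GP66+ cells (instead of 4) and 3 lower with Thpok deletion (instead of 0). DESeq2 called 4 lower in CD8-like cells (instead of 8), 2 lower with Thpok deletion and 1 lower in Cxcr6+ cells (instead of 3). Thinning to 1500 UMIs gave 5 in CD8-like cells, and all UMIs of a cell gave 5 in the Nr4a1 gate (instead of 3). Over all genes, thinning called 856 lower and all UMIs 357 higher (instead of 1800 and 53). Without the library as replicate block the counts were 3 in CD8-like, 0 in Cxcr6+ and 0 in Nr4a1+ cells. Over all genes that fit called 593 lower, 235 lower and 1 higher in the same order (instead of 1800, 1153 and 53). No paired analysis was possible because the GP66+ libraries carry no replicate numbers, so the block was limited to classes of the same library. Leaving out 1 library gave 1 to 3 members lower in Cxcr6+ cells and 3 higher in Nr4a1+ cells each time. For GP66+ cells, Thpok deletion and day it could leave an arm without a replicate. The members called there, and the genes called over all, changed with the library left out. Leaving out a total library left no residual degree of freedom for the 2 classes of the total libraries, so those values had no test. Each change of sign was in a value past no threshold, and the cause was not tested. In CD8-like cells Tnfaip3 went to 0.0079 with no filter and 0.12 thinned. Bcl3 in GP66+ cells went to 0.71 within Cxcr6+ cells and ranged from -0.80 to 0.50 with a library left out. With Thpok deletion and a library left out, Rel ranged from -1.74 to 0.059, Bcl3 from -0.62 to 0.63 and Tnfaip3 from -0.37 to 0.048 (0.044 at day 7 alone). At day 30 and with a library left out, Rel ranged from -0.13 to 1.63, Nfkbia from -0.71 to 0.51, Nfkbiz from -0.40 to 0.63 and Bcl3 from -0.66 to 0.55, and Bcl3 went to 0.19 thinned, 0.027 in cells with no Cd8 UMI and 0.37 within Cxcr6+ cells. In Cxcr6+ cells Tnfaip3 went to 0.17 thinned and ranged from -0.23 to 0.084 with a library left out. In Nr4a1+ cells Nfkb2 went to 0.24 with all UMIs and 0.072 without the replicate block. Over all genes, calls without the filter were 440 higher and 337 lower in GP66+ cells, 419 and 372 with Thpok deletion and 10 and 0 for the interaction, whose median moved to 0.20 (that of day to -0.11). DESeq2 called 734 higher and 614 lower in CD8-like cells (instead of 1727 and 1800), 255 and 218 with Thpok deletion (instead of 79 and 41) and 10 and 0 in Nr4a1+ cells (instead of 53 and 7, and 32 and 6 without the filter).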
